A study of Mus musculus with 4 samples.

Results

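This account covers 8 genes that mark Schwann cells, the glia of peripheral nerves, and the nerve fibres they wrap, measured in the mouse ureter: Sox10, S100b, Cdh19, Mbp, Erbb3, Uchl1, Gap43 and Ncam1. They were taken by name, and all 8 were present among the 19296 genes that the arrays could name, each with 1 probe set. Ureters came from male 129Sv/C57BL6 mix mice, with 1 array for each of 4 mice. The wild type group, miR-143/145+/+, held 2 mice aged 4.5 months whose kidneys were normal. The knockout group, miR-143/145-/-, held 2 mice aged 2.5 months with hydronephrosis, a widening of the kidney by dammed-back urine. Genotype, age and kidney state cannot be told apart in this design, and the labels do not say whether any cell type was removed or enriched. The labels call the mice of a group biological replicates.

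Schwann cells arise from the neural crest under the transcription factor Sox10. They survive and divide on neuregulin-1, which axons present and which they sense through the receptor pair of Erbb3 and Erbb2, and some of them go on to wrap axons in myelin. In the ureter, autonomic and sensory fibres run with their glia through the outer coat and the muscle and reach the layer below the epithelium. In RNA from a whole ureter, a lower value can mean fewer cells of a type or less RNA per cell, and these cannot be told apart.

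The arrays had median log2 values from 7.81 to 7.89, and 13515 to 14231 genes per array lay above a background level of 6.58, the 95th percentile of the means of olfactory receptor genes. The genotype check was clear. Mir145a averaged 8.35 ± 0.09 in the wild type mice and 4.81 ± 0.30 in the knockout mice (SD, n = 2 each). Both knockout values were below background, which bounds the fall at 3.42-fold or more (limma, adjusted p = 0.00193). For Mir143 the bound was 2.24-fold (limma, adjusted p = 0.0148). Kidney marker genes differed within genotypes, with a list mean of 8.35 in knockout replicate 1 and of 6.63 to 7.31 in the other 3 mice, so calls in the nerve and other cell lists that change without knockout replicate 1 are given that way too. Such a fit leaves 1 knockout mouse, and its p measures no spread between knockout mice.

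None of the 8 genes passed an adjusted p of 0.05 in either direction, where 2.38% of all genes did, 1.90% higher and 0.477% lower in knockout (limma, Benjamini-Hochberg over all genes). At an unadjusted p under 0.05, 2 of the 8 differed, Erbb3 and Uchl1, against 26.5% of all genes. The 2 mice of each genotype did not overlap for 4 of the 8 genes, where 60.0% of all genes showed this. Of these, Erbb3, Uchl1 and Ncam1 were higher in both knockout mice (28.0% of all genes) and Sox10 was lower (32.0%). With 2 mice per genotype such shares are near the background, and the count says nothing particular about these genes. The median log2 difference, knockout minus wild type, was 0.08 over the 8 genes and -0.02 over all genes. Without knockout replicate 1, limma passed 2 of the 8, Erbb3 and Uchl1, in a fit that called 9.04% of all genes, 5.78% higher and 3.26% lower. Without knockout replicate 2, where 2.95% of all genes were called, or without either wild type mouse, it passed 0.

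**Figure D1:**
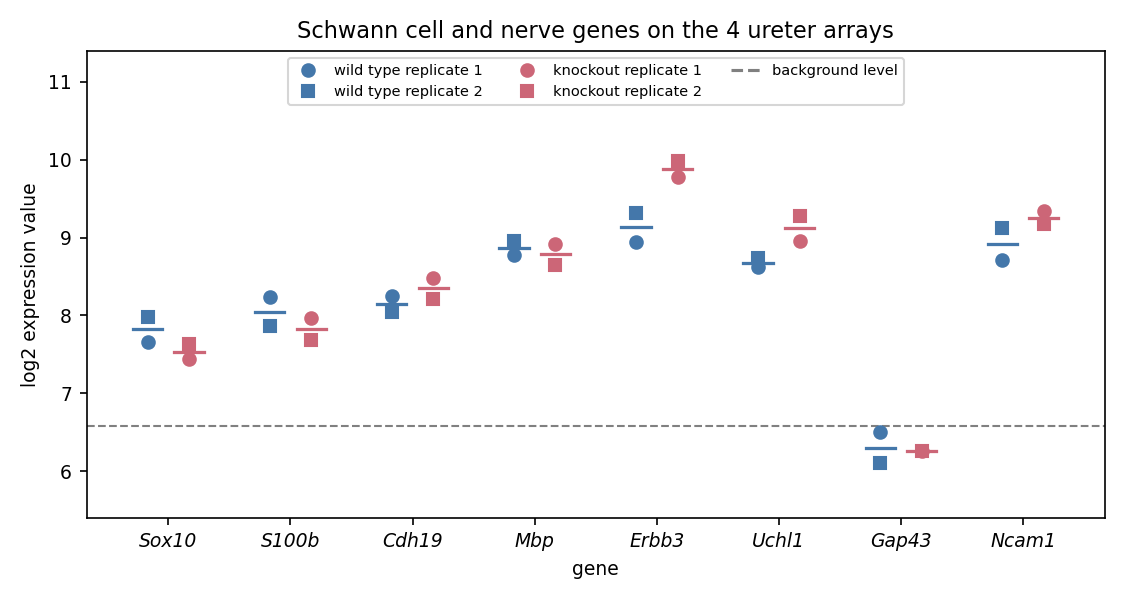
Log2 expression value (vertical axis) of each of the 8 genes (horizontal axis) on the 4 arrays, with circles for replicate 1, squares for replicate 2, a short bar for each genotype mean and a dashed line at the background level of 6.58. Erbb3, Uchl1 and Ncam1 have both knockout mice above both wild type mice, Sox10 has them below, and Gap43 lies under the background line on all 4 arrays.

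The markers that define the glial lineage came first. Sox10, the transcription factor that Schwann cells need throughout life and that melanocytes also carry, measured 7.65 and 7.99 in the wild type mice and 7.44 and 7.63 in the knockout mice. The genotypes did not overlap, but the higher knockout value and the lower wild type value were only 0.02 apart. Its log2 difference was -0.28 (SE 0.15), a knockout level of 0.822 of wild type with a 95% interval from 0.641 to 1.05 (limma, adjusted p = 0.274).

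S100b, a calcium-binding protein that is a classical stain for Schwann cells and is also made by fat cells, measured 8.24 and 7.86 in the wild type mice and 7.96 and 7.68 in the knockout mice. The higher knockout value lay between the wild type values, so the genotypes overlapped. The log2 difference was -0.23 (SE 0.17, limma adjusted p = 0.417), and the interval of the fold ran from 0.649 to 1.12. Adipocyte markers moved alongside, with list means of 12.81 and 12.71 in the wild type mice and 12.50 and 11.99 in the knockout mice. All 12 tested members were lower, with 0 of them past the threshold. Relative to the wild type mean, the list stood at -0.26 in knockout replicate 1 and at -0.77 in knockout replicate 2. Whether fat contributed to the S100b values was not tested.

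Cdh19, a cadherin largely restricted to the Schwann lineage, measured 8.25 and 8.04 in the wild type mice and 8.48 and 8.21 in the knockout mice. Its difference was 0.20 (SE 0.14), opposite in sign to those of Sox10 and S100b, and the genotypes overlapped (limma, adjusted p = 0.406). The interval of the fold ran from 0.908 to 1.45. Sox10, S100b and Cdh19 thus had no shared direction, and the interval of each fold included 1.

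Mbp, which encodes myelin basic protein, the protein that compacts the myelin sheath, measured 8.78 and 8.95 in the wild type mice and 8.92 and 8.65 in the knockout mice. One knockout mouse lay within the wild type range and the other below it. The difference of -0.08 (SE 0.14) was the second smallest in size of the 8 (limma, adjusted p = 0.745), with a fold between 0.751 and 1.19. Its sign was positive without wild type replicate 2 or without knockout replicate 2.

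Erbb3, the neuregulin receptor subunit of Schwann cells and of many epithelia, differed most. It measured 8.95 and 9.32 in the wild type mice and 9.77 and 9.99 in the knockout mice. Both knockout values were above both wild type values, with a gap of 0.46 between the groups. The difference of 0.75 (SE 0.16) is a 1.68-fold higher level with an interval from 1.30 to 2.18, and it did not pass over all genes (limma, adjusted p = 0.0581). Over the 13 alternatives the difference ran from 0.57 to 0.94, and it was 0.86 without knockout replicate 1. It passed in 4 of them and did not pass in the other 9. The 4 were robust variance estimates (limma, adjusted p = 0.0411), the replicate block, a looser threshold of 0.1 and the fit without knockout replicate 1.

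Uchl1, the neuronal deubiquitinating enzyme known as PGP9.5 and a standard stain for nerve fibres, was the other gene with an unadjusted p under 0.05. Its values were 8.62 and 8.73 in the wild type mice and 8.96 and 9.28 in the knockout mice. The genotypes were apart by 0.22, less than the 0.32 between the knockout mice. The difference was 0.44 (SE 0.14), or 1.36-fold with an interval from 1.07 to 1.72 (limma, adjusted p = 0.118). It passed at 0.60 without knockout replicate 1 (adjusted p = 0.0446) and stood at 0.28 without knockout replicate 2 (adjusted p = 0.408).

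Ncam1, a neural cell adhesion molecule of axons and of Schwann cells without myelin, which mesenchyme and muscle can also make, measured 8.72 and 9.12 in the wild type mice and 9.34 and 9.17 in the knockout mice. Its genotypes were separated by 0.05, far less than the 0.41 between the wild type mice. The difference was 0.34 (SE 0.16, limma adjusted p = 0.234), with a fold from 0.968 to 1.64.

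Gap43, a protein of growing axon tips that repair Schwann cells also make, measured 6.50 and 6.11 in the wild type mice and 6.25 and 6.26 in the knockout mice. All 4 values lay below background, so it gives no fold, and its difference of -0.05 changed sign with a further quantile normalization (0.10) and without wild type replicate 1 (0.15).

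**Figure D2:**
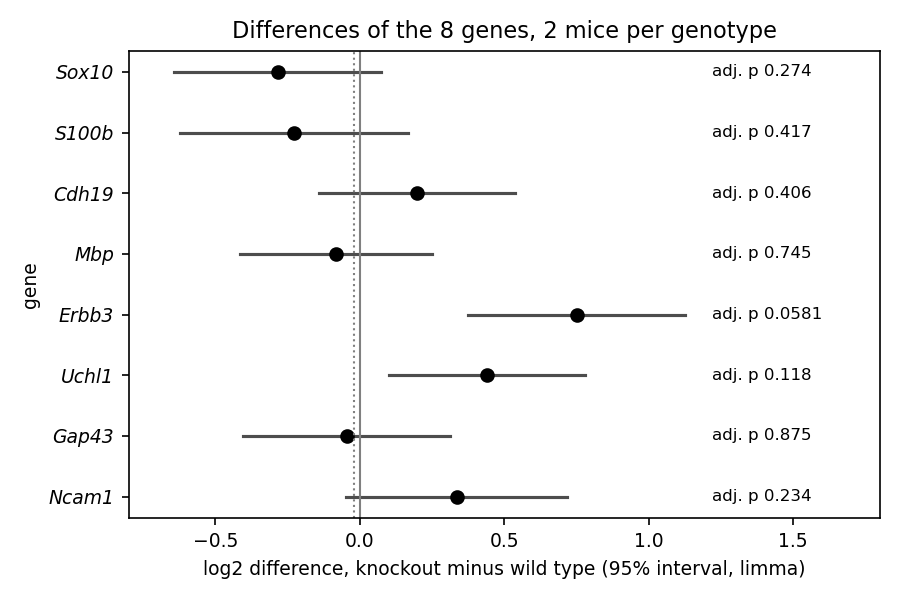
Log2 difference, knockout minus wild type (horizontal axis), of each of the 8 genes (vertical axis) with its 95% interval from limma as a line and its adjusted p at the right. The solid vertical line marks 0 and the dotted one the median of all genes, -0.02. The intervals of Erbb3 and Uchl1 lie above 0 and the other 6 span it.

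The receptor and the lineage factor differed by unequal amounts within the same arrays. The log2 ratio of Erbb3 to Sox10 was 1.03 higher in the knockout mice, and it differed between the mice of 1 genotype by 0.04 in wild type and 0.02 in knockout. Against S100b the ratio of Erbb3 was 0.98 higher, against Mbp 0.83 and against Cdh19 0.55. For Cdh19 the ratios of wild type replicate 2 and knockout replicate 1 were 0.02 apart. These pairs were chosen after the values were seen, and they carry no test.

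Markers of some other cell types moved with Erbb3 and those of others did not. List means were lower in knockout for adipocytes, melanocytes, endothelium and macrophages. As deviations from the wild type mean, Erbb3 stood at -0.18 and 0.18 on the wild type arrays and at 0.64 and 0.86 on the knockout arrays. The mean of 11 urothelium markers stood at -0.13, 0.13, 0.43 and 0.78 on the same arrays, and all 11 markers had knockout values above wild type without overlap. Measured against that mean, Erbb3 was 0.14 higher in knockout, while Sox10 was lower by 0.89, S100b by 0.83, Mbp by 0.69, Cdh19 by 0.41, Ncam1 by 0.27 and Uchl1 by 0.17. The mean of 12 fibroblast and ureter mesenchyme markers stood at -0.05, 0.05, 0.69 and 0.84, and against it the difference of Erbb3 was -0.01. The adipocyte mean was lower in knockout, and against it all 8 genes read higher there, Erbb3 by 1.26, Uchl1 by 0.95, Ncam1 by 0.85, Cdh19 by 0.71, Gap43 by 0.47, Mbp by 0.43, S100b by 0.28 and Sox10 by 0.23. Apart from Erbb3, whose difference lay near 0 against the fibroblast mean, the sign for the other 7 genes thus turned with the reference list. The part of any of these cell types in the Erbb3 difference was not tested.

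**Figure D3:**
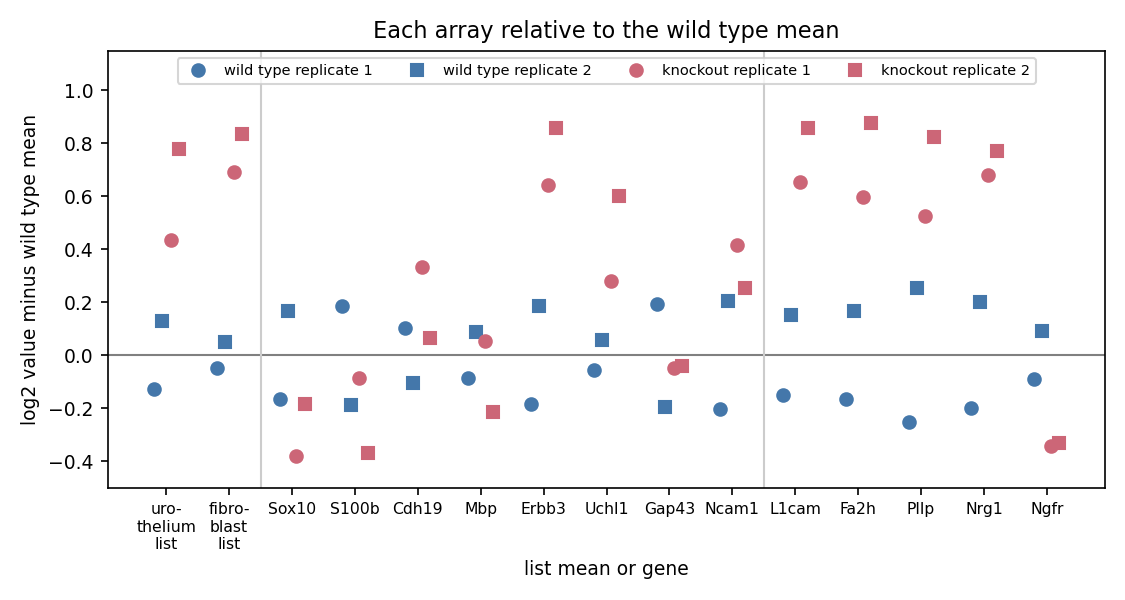
Log2 value minus the wild type mean (vertical axis) on each of the 4 arrays for the mean of the urothelium list, the mean of the fibroblast and mesenchyme list, the 8 genes, and 5 further nerve genes chosen for display after their values were seen. Circles are replicate 1 and squares replicate 2. Erbb3, L1cam, Fa2h, Pllp and Nrg1 have their knockout values between 0.53 and 0.88, beside 0.43 and 0.78 for the urothelium list, while the knockout values of Sox10, S100b and Ngfr are below 0.

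Other genes of nerve and glia were followed in 8 lists with 109 tested genes, of which 1 rose, 1 fell and 107 did not pass. Over all genes 1.90% passed higher and 0.477% lower. The median difference of the list genes was -0.07. An unadjusted limma p under 0.05 was reached by 29.4% of them, beside 26.5% of all genes. Of the 109 genes, 83 lay above background in at least 1 genotype. Both calls were lost when either wild type mouse was left out, as were those of all genes. Itga4 differed by 0.65 without knockout replicate 1 and by 0.70 without knockout replicate 2, and Cdh2 by -1.30 and -0.87. Genes named only for a call without knockout replicate 1 were chosen after their values were seen. Such a call rests on knockout replicate 2 alone among the knockout mice.

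Among 13 tested myelin genes, none passed, with 4 higher and 1 lower before adjustment (limma p under 0.05) and a median difference of -0.11. Of genes with a central role in the sheath, named here after their values were seen, Pmp22, a membrane protein of compact myelin, differed by -0.11 and Cnp, an enzyme of the uncompacted sheath, by 0.02. Egr2 is the transcription factor that switches Schwann cells to myelination. It measured 7.01 and 7.29 in the wild type mice and 7.02 and 6.94 in the knockout mice. Mag, an adhesion protein of the sheath next to the axon, measured 6.07 and 6.65 in the wild type mice. Its knockout values, 6.06 and 6.13, were both below background, as was the lower wild type value, and the genotypes overlapped.

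Of the 4 myelin genes above background with the smallest p, Fa2h, Pllp and Mal are also active in epithelia. Fa2h, which makes the hydroxylated lipids of myelin and of epithelial membranes, measured 9.22 and 9.55 in the wild type mice and 9.98 and 10.26 in the knockout mice. The difference was 0.74 (SE 0.16, limma adjusted p = 0.0614) with no overlap. Pllp and Mal, proteolipids of myelin and of the apical membrane of epithelia, differed by 0.68 (adjusted p = 0.0934) and 0.38 (adjusted p = 0.125), and Drp2, a partner of the Schwann cell dystroglycan complex, by 0.35 (adjusted p = 0.137). Against the urothelium mean the differences were 0.13 for Fa2h, 0.07 for Pllp and -0.22 for Mal. Without knockout replicate 1, Fa2h and Pllp passed (adjusted p = 0.0114 and 0.0269), and so did Gldn, lower by 1.56 (adjusted p = 0.00064). Gldn, or gliomedin, which gathers sodium channels at the nodes of peripheral axons, measured 8.65 and 8.28 in the wild type mice and 8.40 and 6.90 in the knockout mice. Its difference over all 4 mice, -0.82, was the largest in the myelin list and did not pass (adjusted p = 0.263), and the genotypes overlapped.

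Of 18 tested genes of the wider Schwann lineage, 1 rose and the other 17 did not pass; before adjustment 3 were higher and 4 lower (limma p under 0.05), and the median was -0.07. Itga4, an integrin chain of neural crest cells that leukocytes and other cells also carry, rose from 7.88 and 7.97 in wild type to 8.62 and 8.57 in knockout mice. Its difference was 0.67 (SE 0.11, limma adjusted p = 0.0416). A further quantile normalization ended the call (limma, adjusted p = 0.0629), as did arrays centred on their medians (0.05002). Leaving out either wild type mouse ended every call over all genes, this one included.

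L1cam, an axonal and glial adhesion molecule, measured 8.60 and 8.91 in the wild type mice and 9.41 and 9.62 in the knockout mice and differed by 0.76 (limma, adjusted p = 0.0521). Tfap2a, a transcription factor of neural crest and of surface epithelium, differed by 0.57 (adjusted p = 0.0694). Both passed without knockout replicate 1 (adjusted p = 0.0117 and 0.0228), and L1cam also with only genes above background tested (0.0448), with an intensity trend (0.0460) and with robust variance estimates (0.0356).

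Ngfr, the low-affinity neurotrophin receptor of Schwann cells without myelin, went the other way. It measured 8.55 and 8.73 in the wild type mice and 8.29 and 8.31 in the knockout mice, without overlap, and differed by -0.34 (SE 0.12, limma adjusted p = 0.141). The other 3 genes that were lower before adjustment were Pou3f1 (-0.32), Col28a1 (-0.34) and Sox2 (-0.31). Pou3f1 is a transcription factor of Schwann cells about to myelinate and Col28a1 a collagen of peripheral glia. Both knockout values of Sox2 and 1 of its wild type values, 6.46 beside 6.64, were below background. Sox2 is a factor of immature glia. Gfap, a filament of the same cells, differed by -0.20, Scn7a, a sodium channel of peripheral glia, by -0.23 and Fabp7, a lipid-binding protein of immature glia, by 0.01; the genotypes overlapped for these last 3. These 6 were chosen from the list after their values were seen.

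Neuregulins, other ligands of the receptor family and its partner receptors made up 12 tested genes, none of which passed; 3 were higher and 1 lower before adjustment (limma p under 0.05), and the median was -0.03. Nrg1, the ligand that Schwann cells depend on, measured 7.08 and 7.48 in the wild type mice and 7.96 and 8.05 in the knockout mice. Its difference of 0.73 (SE 0.16, adjusted p = 0.0587) was close in size to that of Erbb3, and the genotypes did not overlap. Erbb2, the kinase partner of Erbb3, differed by 0.45 (adjusted p = 0.0968).

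Tgfa, a ligand of the epidermal growth factor receptor, differed by 0.61 (adjusted p = 0.0802) and Btc, another ligand of this family, by -0.32 (adjusted p = 0.247). Without knockout replicate 1, Nrg1 and Tgfa passed (adjusted p = 0.0261 and 0.0233), and with robust variance estimates Nrg1 did (0.0424). Nrg4, a neuregulin that binds Erbb4 and is made by fat, passed lower without that mouse (-0.91, adjusted p = 0.00648). Over all 4 mice it measured 10.67 and 10.48 in the wild type mice and 10.50 and 9.66 in the knockout mice, which overlap, and did not pass (adjusted p = 0.261). Measured against the urothelium mean, the differences were 0.12 for Nrg1, 0.01 for Tgfa and -0.15 for Erbb2.

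Neuron genes were dim. Of 21 tested, 10 were below background on all 4 arrays, among them the neuronal tubulin gene Tubb3 and the neurofilament gene Nefl. None passed, with 0 higher and 5 lower before adjustment (limma p under 0.05), and the median was -0.09. Tubb3 and Nefl, below background on all 4 arrays, were among these 5. Slc18a3, the vesicular acetylcholine transporter of cholinergic fibres, measured 7.19 and 7.44 in the wild type mice and 6.77 and 6.91 in the knockout mice, a difference of -0.47 (adjusted p = 0.0938). Th, which makes the precursor of noradrenaline in sympathetic fibres, differed by -0.53 (adjusted p = 0.118), with 1 of its knockout values below background.

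Nos1, the neuronal nitric oxide synthase, and Npy, a peptide of sympathetic fibres, differed by -0.30 and -0.26. All 4 of these genes, named for the smallest p above background in the list, had both knockout mice below both wild type mice. Over the whole list 9 of 21 genes were lower without overlap and 3 higher, beside 32.0% and 28.0% of all genes. Nerve fibres carry little of the RNA of their cell bodies, which mostly lie outside the ureter. The lower quartile of the arrays was 6.36 and 6.45 in the wild type mice and 6.26 and 6.27 in the knockout mice, so dim genes read lower in knockout as a whole; its part in these differences was not tested.

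Trophic factors of nerve and their receptors gave 11 tested genes, none of which passed, with 1 higher and 2 lower before adjustment (limma p under 0.05). The median was -0.21, and 9 of the 11 were lower. Sort1, a sorting receptor that binds precursors of neurotrophins and is abundant in fat, measured 11.76 and 11.65 in the wild type mice and 11.28 and 11.002 in the knockout mice, a difference of -0.56 (adjusted p = 0.0726), beside the lower adipocyte markers given above. Nrtn, which supports parasympathetic neurons, differed by -0.36, and Artn, which supports sympathetic neurons, by 0.39. Gdnf, a factor for neurons and for the budding of the ureter, had 1 wild type value (6.47, beside 6.80) and both knockout values below background. Set against background, its wild type mean gave a bound of 1.04-fold lower in knockout, which did not pass (limma, adjusted p = 0.193). The interval of the measured Gdnf fold ran from 0.626 to 1.004 and included 1, so no minimum fall was established. Without knockout replicate 1, Sort1 passed (adjusted p = 0.0222), as did Ntrk3, the receptor of neurotrophin-3, which was lower by 1.13 (adjusted p = 0.00553). Over all 4 mice Ntrk3 differed by -0.60 with overlapping genotypes (adjusted p = 0.298).

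Relatives of S100b showed no shared direction. Of 14 tested S100 genes none passed, with 0 higher and 2 lower before adjustment (limma p under 0.05); both of the latter were below background on all arrays. The median was 0.12. S100a6, found in fibroblasts and epithelia, differed by 0.31, S100a5 by 0.25, S100a13 by -0.31 and S100a10, a partner of annexin, by -0.26, with adjusted p from 0.202 to 0.221.

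Adhesion genes related to Cdh19 and Ncam1 held the largest difference in the 8 nerve lists. Cdh2, or N-cadherin, which links Schwann cells to axons and is also made by many other cells, fell from 10.14 and 9.92 in wild type to 9.16 and 8.73 in knockout mice. Its difference was -1.08 (SE 0.17), a knockout level of 0.472 of wild type (limma, adjusted p = 0.0368). The call was lost without either wild type mouse, as were those of all genes. Its difference was -1.30 without knockout replicate 1 and -0.87 without knockout replicate 2.

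Of the 13 tested adhesion genes, Cdh2 was the only one to pass, and the median was -0.16. Cdh11, a cadherin of mesenchyme, differed by 0.54 (adjusted p = 0.0581), and passed with only genes above background tested (0.0493) and with robust variance estimates (0.0451). Nfasc, an adhesion protein of the nodes of myelinated axons, differed by -0.37 and Cdh6 by -0.38. Ncam2, the nearest relative of Ncam1, was below background on all 4 arrays.

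Among 7 genes related to Gap43 or Uchl1, none passed, and 2 were higher before adjustment (limma p under 0.05), with a median of 0.07. The membrane-bound relatives of Gap43 had the smallest p. Marcksl1 measured 8.88 and 9.05 in the wild type mice and 9.33 and 9.77 in the knockout mice, a difference of 0.58 (adjusted p = 0.0948), and Basp1 differed by 0.45 (adjusted p = 0.157). Both passed without knockout replicate 1 (adjusted p = 0.0123 and 0.0241). Marcks differed by 0.29 and Nrgn, a neuronal protein, by -0.21. The enzymes closest to Uchl1 differed by -0.02 (Uchl3), 0.07 (Uchl5) and -0.01 (Bap1).

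**Figure D4:**
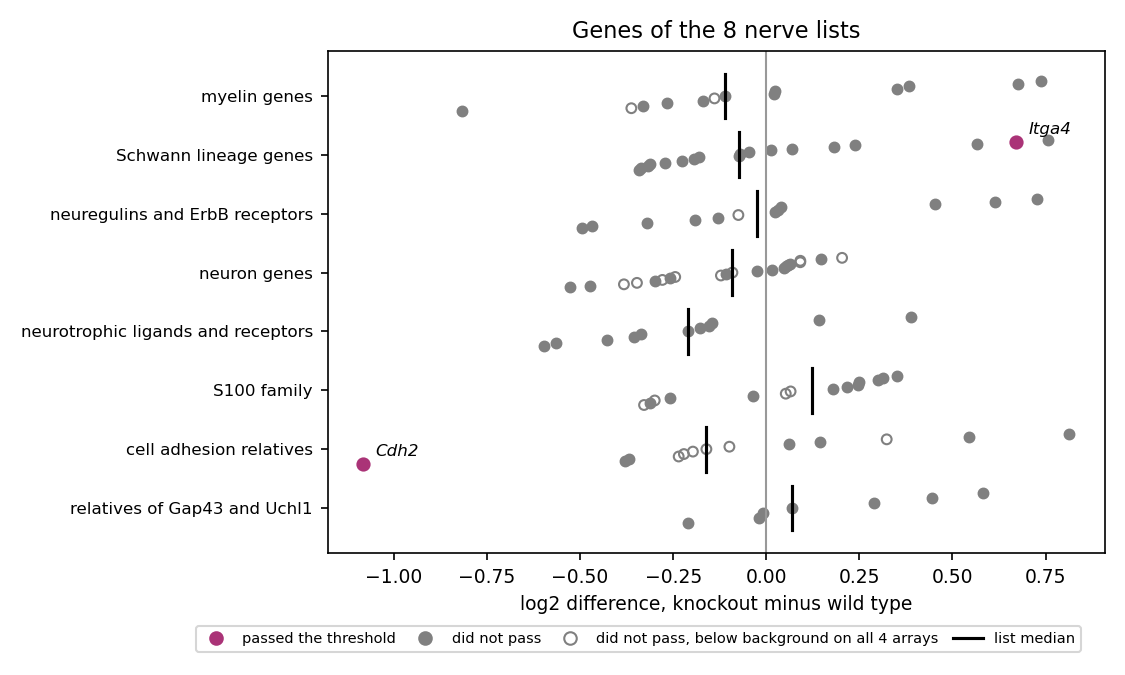
Log2 difference, knockout minus wild type (horizontal axis), of the 109 tested genes in 8 nerve lists (vertical axis), with a black bar at each list's median. Itga4 and Cdh2 passed the threshold, and open circles mark genes below background on all 4 arrays. The list medians lie between -0.21 and 0.12.

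Cells that could add to the values of these genes were followed in 9 lists with 95 tested genes, of which 7 rose and 0 fell. Over all genes 1.90% passed higher and 0.477% lower. Before adjustment 43 of the 95 differed (limma p under 0.05), or 45.3% beside 26.5% of all genes. Of 12 fibroblast and mesenchyme genes 5 rose, led by Tcf21 (1.62) and Lum (1.70), and 1 each rose in the urothelium list, Trp63 (0.83, adjusted p = 0.0486), and the smooth muscle list, Myocd (1.01). Trp63 did not pass without knockout replicate 2 (adjusted p = 0.0593), with a further quantile normalization (0.0676) or with centred arrays (0.0508). In the same lists Gata3 differed by 0.84 and Cnn1 by 0.49. Melanocytes, the other Sox10 cell type, had list means of 6.38 and 6.51 in the wild type mice and 6.32 and 6.21 in the knockout mice; 5 of its 9 genes, including Tyr and Dct, were below background on all arrays, and Mlana and Slc45a2 differed by -0.40 and -0.34.

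The remaining lists of other cells held no gene past the threshold over all 4 mice. Adipoq and Retn, of fat, differed by -0.73 and -0.65. Cubn, a receptor of kidney tubules, had both wild type values under the background level. It read 7.87 in knockout replicate 1 and 6.90 in knockout replicate 2. The mean of these gave a bound of 1.75-fold higher in knockout, which did not pass. Nphs1, of the glomerulus, differed by -0.51. In the endothelium list Cldn5 and Kdr differed by -0.73 and -0.55, and in the macrophage list Csf1r and Lyz2 by -0.27 and -0.39. Skeletal muscle, which can carry Ncam1, had list means between 7.42 and 7.51 on all 4 arrays, with Acta1 at -0.44 and Tnni2 at 0.36.

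The calls in these lists changed with the mouse left out. They were lost, as were those of all genes, when either wild type mouse was left out. Without knockout replicate 1, 17 of the 95 genes were higher and 13 lower, or 31.6% beside 9.04% of all genes. They were 9 of the urothelium genes, 6 of the fibroblast and mesenchyme genes, Myocd and Cubn on the higher side. On the lower side were 9 adipocyte genes, the endothelial genes Cldn5, Kdr and Cdh5, and Dct, which is below background on all arrays. Without knockout replicate 2, 13 were higher, or 13.7% beside 2.26% of all genes, 7 of them in the kidney list, 5 in the fibroblast list and Myocd.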

How the data were processed

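The log2 expression values of each probe set on each array were used as the authors deposited them. The submitters' processing notes name RMA with R 2.15.0 and limma 3.12.1. Per the labels' protocols, each Affymetrix whole-transcript array took cDNA made from 500 ng of RNA. RMA brings the array distributions closer together, so a change of most genes at once would be muted. The deposited values still differed between arrays in median and lower quartile. Counting depth does not exist for arrays, and 2 mice per genotype limit the precision. The sources used here name no genome build, and no coordinates are given.

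Of 23309 probe sets, 20728 had 1 symbol, 1174 several and 1407 none; only the first were named. The brightest probe set by the mean of the 4 arrays stood for each of 19296 genes. Knockout was compared with wild type over all genes with limma 3.58.1 in R 4.3.3 (lmFit, eBayes, Benjamini-Hochberg), and SE and 95% intervals are moderated. The script was tested on simulated data. A gene below background on both arrays of a genotype gets a bound: the brighter mean against the higher of background and measured value per array.

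Named genes were the members, the 4 of smallest p above background in each nerve list with all past the threshold, 2 chosen alike in each list of another cell type, Mir143 and Mir145a; others are marked as chosen later or stand for a list. Members and lists were chosen with earlier results of these data known. Of 227 list genes 212 were tested. The 13 alternatives changed the normalization, filter, probe set rule, variance model, replicate block, threshold or mice used.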

Additional observations from a re-analysis of the deposited data

How the results depend on the processing

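Among the 8 genes, Sox10, S100b, Cdh19, Ncam1, Erbb3 and Uchl1 kept their direction under all 13 alternatives. Leaving out 1 mouse moved the log2 difference of Mbp between -0.22 and 0.053, that of Gap43 between -0.24 and 0.15 and that of Nrgn between -0.47 and 0.047, so these 3 changed sign, and that of Gap43 was 0.10 with a further quantile normalization; the cause was not tested. The replicate numbers did not pair the mice (r = -0.03 across genes between deviations of equal number), and the design gives no other pairing. With the replicate block, 1164 genes were higher and 758 lower, of which 1 was among the 8 genes (Erbb3, adjusted p = 0.0151), 10 higher and 4 lower in the nerve lists, and 18 higher and 7 lower in the lists of other cells. At an adjusted p threshold of 0.1 the counts were 1317 and 982 of all genes, 1 higher of the 8, 10 and 3 in the nerve lists, and 19 and 3 in the others. Robust eBayes gave 655 and 247 of all genes, 1 higher of the 8, 5 higher in the nerve lists and 1 lower in the others.

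A further quantile normalization gave 164 and 50 of all genes, 0 higher in the nerve lists and 3 higher in the others. Arrays centred on their medians gave 245 higher and 148 lower, against 367 and 92 as deposited, with 0 higher in the nerve lists. With only genes above background, 147 of all genes were lower and 3 nerve list genes higher, and with an intensity trend 2 were. Leaving out 1 mouse gave 0 to 1115 genes higher and 0 to 629 lower, 0 to 2 of the 8 genes higher, 0 to 9 nerve list genes higher and 0 to 5 lower, and 0 to 17 higher and 0 to 13 lower in the other lists. The counts of 0 over all genes (limma) came without either wild type mouse, where an unadjusted p under 0.05 was reached by 1802 genes in the upward and 2451 in the downward direction without replicate 1, and by 1791 and 1288 without replicate 2; a lone mouse was assumed to vary like the other group.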
